A study of Homo sapiens with 7 samples.

Results

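The step from 5 to 8 h after ultraviolet C (UVC) irradiation was examined in average profiles of nascent transcription, with the region around gene starts set against the gene body. It rests on the 2 libraries titled for 5 h and 8 h, out of 7 in the series. All 7 were made from MRC5VA cells, an immortalised human lung fibroblast line. The cells had received UVC at 15 J per square metre in the 5 h and 8 h groups, as in those collected 2, 10, 12 and 24 h after irradiation, and the remaining library came from unirradiated cells. Each group has 1 library, so no test between times is possible, the intervals given here cover counting error only, and the spread between cultures is unknown.

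Global run-on sequencing (GRO-seq) maps engaged RNA polymerases by letting them extend their transcripts in isolated nuclei with a labelled nucleotide, here bromouridine for 5 min. At human genes such maps usually show a peak just downstream of the start, where RNA polymerase II pauses after initiation, and often a smaller peak upstream of it from divergent initiation at the same promoter. UVC makes bulky lesions in DNA that stall elongating polymerases, so that polymerases can be lost from distant parts of genes while they still occupy the parts near the start. Nucleotide excision repair clears such lesions from transcribed strands.

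Window bounds are given in round numbers, with the last base left out. Each library was deposited as 1 signal value per base from -2000 to 120000 bp, averaged over genes. Position 0 is taken as the transcription start, since the downstream maximum lies just beyond it. The 5 h and 8 h libraries were close in depth, with 12003109 and 12218395 reads recovered over the profile, and the other 5 ranged from 12057067 to 25795781. The labels do not state how the libraries were scaled. Ratios are therefore given as deposited and after dividing each profile by its own sum from 0 to 100 kb. These sums were 306029 at 5 h and 314790 at 8 h, so the scaling lowers every log2 ratio of 8 h to 5 h by 0.041. The profiles hold no single gene and do not state whether the strands were summed, and an average cannot tell more genes or cells with signal from more signal in each.

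Signal around the start was higher at 8 h than at 5 h on both sides of position 0. In the start window (0 to 1 kb) the mean signal was 6.48 at 5 h and 7.47 at 8 h, against 7.46 in untreated cells. This is a ratio of 1.153 (95% counting interval 1.147 to 1.159), or 0.21 on the log2 scale. In the near upstream window (-1 to 0 kb) the mean signal was 3.46 at 5 h and 4.53 at 8 h, against 4.61 in untreated cells. The ratio there was 1.31 (1.298 to 1.317), or 0.39 on the log2 scale, so the relative gain was larger upstream of position 0 than downstream of it. The difference between these log2 ratios was 0.18 (0.169 to 0.195) and does not depend on the scale of either library. After scaling to the own sum the ratios were 1.12 in the start window and 1.27 in the near upstream window. After background subtraction the log2 ratios were 0.27 and 0.71.

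**Figure D1:**
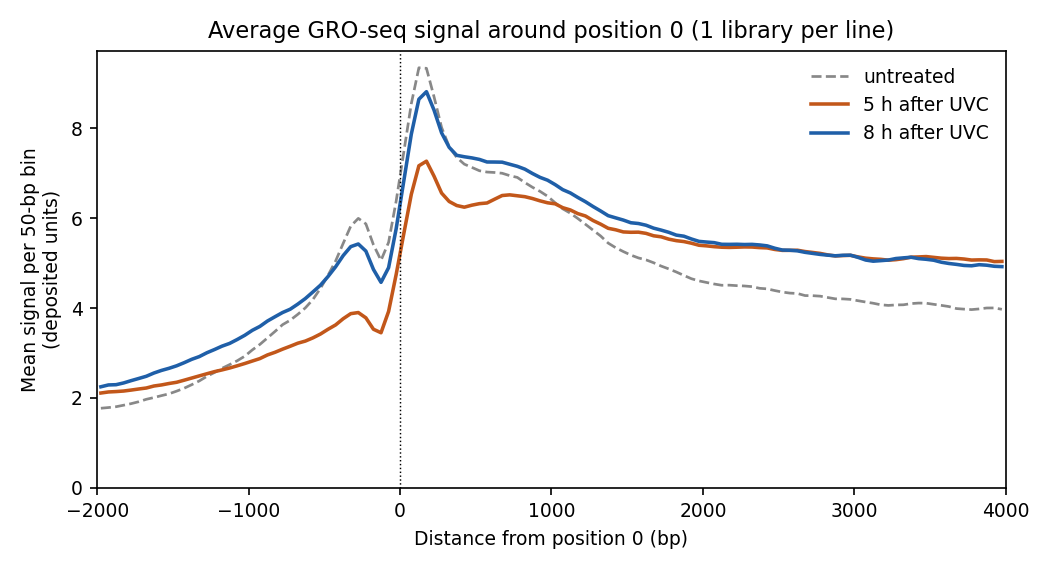
Mean deposited signal in 50-bp bins (vertical axis) against distance from position 0 (horizontal axis) for the 5 h, 8 h and untreated libraries, 1 library per line. The 8 h line lies above the 5 h line from -2000 bp past 2000 bp, and the lines meet near 2600 bp.

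The profile has an upstream maximum, a trough and a higher downstream maximum, and the libraries at 5 h and 8 h had them at the same places in 50-bp bins. The upstream maximum, in the bin from -300 to -251 bp, had a signal of 3.90 at 5 h and 5.43 at 8 h, with 5.998 in untreated cells. The trough, in the bin from -150 to -101 bp, had 3.45 at 5 h and 4.57 at 8 h, with 5.06 in untreated cells. The downstream maximum, in the bin from 150 to 199 bp, had 7.27 at 5 h and 8.82 at 8 h, with 9.34 in that bin in untreated cells. At all 3 places the 8 h library lay between the 5 h and the untreated library in deposited signal. After scaling to the own sum, the 8 h and untreated libraries were nearly level at the downstream maximum. The bin that begins at position 0 gave 5.65 at 5 h and 6.82 at 8 h.

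In absolute terms the gain had lobes of nearly equal height at the maxima. The difference in signal was 1.53 (95% counting interval 1.46 to 1.59) at the upstream maximum and 1.55 (1.46 to 1.63) at the downstream maximum. The difference between these gains was -0.021 (-0.125 to 0.082), which is within counting error of 0. Because the upstream maximum started from a lower signal, the same gain was a larger ratio there: 1.39 (1.37 to 1.41) against 1.21 (1.2004 to 1.225). Gains of at least 50% of the largest one formed an unbroken stretch of 30 bins from -850 to 649 bp.

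**Figure D2:**
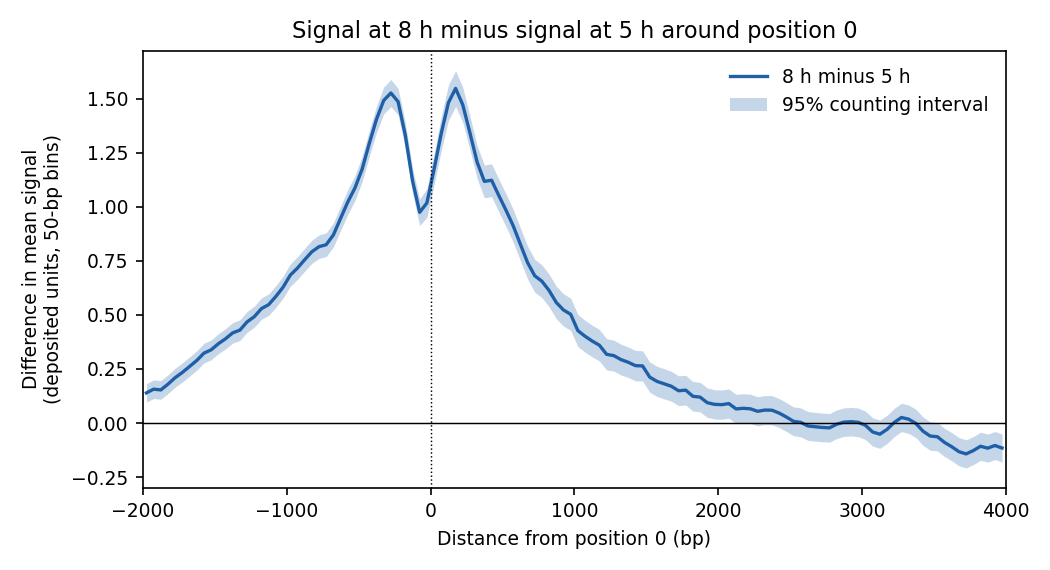
Signal at 8 h minus signal at 5 h in 50-bp bins (vertical axis, deposited units) against distance from position 0, with the 95% counting interval as a band. The line has a peak of 1.53 upstream and one of 1.55 downstream of position 0 and falls to 0 near 2600 bp.

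The highest ratios of 8 h to 5 h lay upstream of the start and not at the downstream maximum. The 3 highest of the 120 bins of 50 bp were those from -250 to -201 bp (1.393), from -300 to -251 bp (1.391) and from -350 to -301 bp (1.385). A fold of at least 1.1 was reached in 51 of the 120 bins, which is 42.5% of the bins examined, and these bins formed 1 unbroken run from -1750 to 799 bp. After scaling to the own sum there were 44 such bins (36.7%), from -1600 to 599 bp. No bin was lower at 8 h by that fold on either scale (0%). By counting intervals, 83 bins lay above a ratio of 1, 9 below it and 28 on neither side, and after scaling the numbers were 70, 39 and 11.

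On the upstream side the gain had not ended where the deposited profile begins. In the farthest upstream bin, from -2000 to -1951 bp, the ratio was still 1.066 (1.045 to 1.087). Over the far upstream window (-2 to -1 kb) the mean signal was 2.38 at 5 h and 2.74 at 8 h, with 2.22 in untreated cells. This ratio of 1.15 (1.140 to 1.160) differed from that of the start window by less than counting error, with a difference of log2 ratios of 0.0041 (-0.011 to 0.019). After background subtraction the far upstream log2 ratio was 0.67, above the 0.27 of the start window. The level subtracted, 1.83 at 5 h and 1.86 at 8 h, is not far below the far upstream signal. The 0.67 therefore rests on small remainders. In the window mean both libraries lay above the untreated one here, unlike at the maxima. By bins, 16 of 20 at 5 h and all 20 at 8 h were at or above untreated in deposited signal. By its mean, the far upstream window thus moved away from the untreated level between 5 and 8 h, as did the window from 1 to 2 kb. The near upstream window and the maxima moved towards that level.

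Downstream, the gain was gone within the early part of the gene, nearer to the start on the scaled values. The mean signal from 1 to 2 kb was 5.78 at 5 h and 6.02 at 8 h, a ratio of 1.041 (1.035 to 1.048). Untreated cells had 5.34 there, so this window moved away from the untreated level. From 2 to 3 kb the signal was 5.29 at 5 h and 5.32 at 8 h, with 4.38 in untreated cells. The ratio there was 1.005 (0.999 to 1.012), which is not distinguishable from 1 at this depth. From 3 to 4 kb it was 0.987 (0.981 to 0.994). The earliest bin past position 0 with a ratio below 1 ran from 2600 to 2649 bp. After scaling to the own sum this bin was the one from 1700 to 1749 bp, and the ratio from 2 to 3 kb was 0.977. The 3 lowest bins of 50 bp lay between 3650 and 3799 bp, with ratios of 0.974, 0.972 and 0.975.

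The shape of the signal just behind the downstream maximum also differed. At 5 h the signal dipped to 6.25 in the bin beginning at 400 bp and was 6.52 in the bin beginning at 700 bp, a second low hump. At 8 h these bins had 7.37 and 7.20, so the signal declined between them. The ratio of the farther to the nearer bin was 1.044 (1.032 to 1.056) at 5 h and 0.977 (0.967 to 0.988) at 8 h. In untreated cells it was 0.965 (0.955 to 0.974).

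The gene body showed a smaller change that depended on distance. Over the whole body (4 to 100 kb) the mean signal was 2.95 at 5 h and 3.03 at 8 h, with 3.26 in untreated cells. The ratio was 1.027 (95% counting interval 1.026 to 1.028), or 0.038 on the log2 scale, and it turned to 0.998 (-0.0027 on the log2 scale) after scaling to the own sum. It was 0.097 on the log2 scale with medians and 0.058 after background subtraction. The body makes up most of the own sum, so that scaling holds the body ratio near 1 whatever the body did. The scaled value therefore cannot show the direction of the net change, which rests on the deposited scale. The order of the parts of the body does not depend on the library scale.

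The near part of the body was lower at 8 h and the far part higher. From 4 to 10 kb the mean signal was 4.89 at 5 h and 4.68 at 8 h, with 3.83 in untreated cells, a ratio of 0.956 (0.954 to 0.959). From 10 to 30 kb it was 3.99 and 3.92, with 3.56 in untreated cells, a ratio of 0.981 (0.980 to 0.983). From 30 to 60 kb it was 2.96 and 3.14, with 3.5001 in untreated cells, a ratio of 1.060 (1.059 to 1.062). In each of these windows the 8 h library was the nearer to the untreated level, from above in the 2 nearer windows and from below in the farther one. From 60 to 100 kb the signal was 2.13 and 2.26, with 2.85 in untreated cells, a ratio of 1.058 (1.057 to 1.060). From 100 to 120 kb the ratio was 1.029 (1.026 to 1.031), and 1.0001 after scaling.

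The bins of 1 kb in the body did not reach the ratios seen around the start. None of the 116 bins from 4 to 120 kb was at least 1.1-fold higher at 8 h, and none was lower by that fold (0% in each direction, on either scale). With the lowest 1-kb mean of each profile subtracted as a background, 80 of them were higher by that fold. Far bins lie little above that background, so their ratios then rest on small remainders. The level subtracted, 1.83 at 5 h and 1.86 at 8 h, is the signal from 118 to 119 kb, where untreated cells had 2.46. It is thus a part of the profile that differed between libraries, and not a measured level without transcription. As deposited, the 3 highest ratios were 1.080, 1.078 and 1.078, in the bins beginning at 48, 55 and 60 kb. The 3 lowest were 0.949, 0.948 and 0.947, in the bins beginning at 8, 9 and 10 kb. On the deposited scale the ratio was below 1 in every bin from 4 to 23 kb and at least 1 in all 97 bins from 23 kb on. After scaling, the bins with a ratio of at least 1 began at 30 kb and numbered 83 up to 118 kb, with 3 breaks.

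**Figure D3:**
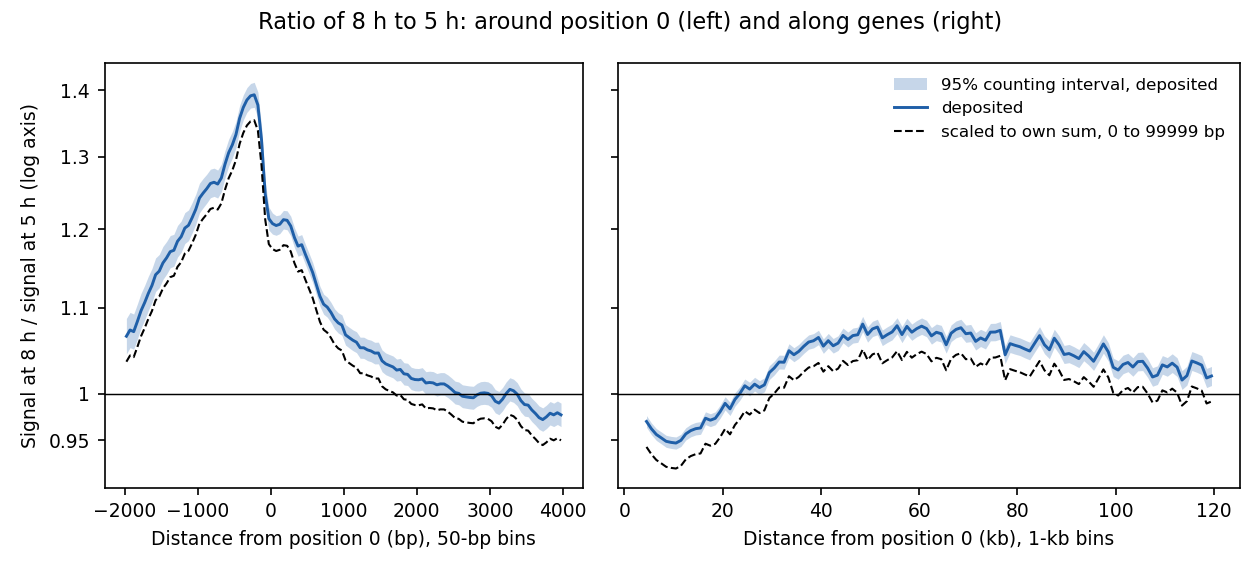
Ratio of signal at 8 h to signal at 5 h on a log axis, in 50-bp bins around position 0 (left) and in 1-kb bins from 4 to 120 kb (right), as deposited with its 95% counting interval (solid line and band) and after scaling each profile to its own sum (dashed line). The ratio reaches 1.39 upstream of the start, falls to 0.947 in the bin beginning at 10 kb and is at most 1.080 in the body as deposited.

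The contrast between start and body was positive whatever the scale of the libraries. The start-window log2 ratio minus the gene-body log2 ratio was 0.168 (95% counting interval 0.160 to 0.176). For the near upstream window the same contrast was 0.35 (0.339 to 0.360), and for the far upstream window it was 0.16 (0.150 to 0.177). The size of the start to body contrast depended on the window and the average used, with 0.28 for a start window from -500 to 500 bp and 0.086 with medians in place of means. The log2 ratios of the 96 body bins of 1 kb ran from -0.079 to 0.11, all below the start-window value of 0.21. This order was lost with the background subtracted, where the body bins ran from -0.15 to 0.69. Of the 96 bins, 42, beginning at 55 kb, then lay above the start-window value of 0.27. The level subtracted was 1.83 at 5 h and 1.86 at 8 h, and far body bins lie little above it. The bin beginning at 90 kb had 1.98 at 5 h and 2.07 at 8 h, so such ratios rest on small remainders. Neighbouring body bins scattered with an SD of 0.0076 on the log2 scale, against a counting error of 0.0063. As a share of the signal from 0 to 100 kb, the start window held 2.12% at 5 h (95% Wilson interval 2.108 to 2.126) and 2.37% at 8 h (2.364 to 2.383), with 2.23% in untreated cells. On this scale the 5 h share lay below the untreated share and the 8 h share above it. The start-window means at 8 h and in untreated cells were nearly equal in deposited signal, at 7.47 and 7.46. The higher 8 h share thus goes with its smaller sum from 0 to 100 kb, 314790 against 334501.

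The gain per base was highest near the start, while as deposited the largest part of the added signal lay from 23 to 120 kb. As deposited, the 8 h profile had 11276 more signal units than the 5 h profile from -2 to 120 kb. The 2000 bases upstream added 1423 and the 1000 bases of the start window added 992, which is 12.6% and 8.80% of the net gain. The bases from 23 to 120 kb added 11663, at 0.120 per base against 0.992 per base in the start window. They make up 79.5% of the profile's length, against 1.64% for the upstream bases and 0.82% for the start window. The 23 kb bound was set where the deposited ratio reached 1, so gains and losses in the body fell on opposite sides of it by choice. Between 4 and 23 kb the difference was -3005 units, or -26.6% of the net gain. With the 8 h profile scaled to the 5 h sum, the net gain was 1223 units. The upstream bases then added 1221 and the start window 784, while the difference from 4 to 120 kb was -529 units. This scaling makes the sums from 0 to 100 kb equal, so the net gain could only lie outside those bounds. The scaled sums therefore cannot show where most of the signal was added.

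Set against the untreated library bin by bin, the 8 h profile in deposited signal reached the untreated level on both flanks of the start region, but not at its centre. At 5 h none of the 20 bins from 0 to 1 kb was at or above untreated in deposited signal, and at 8 h 13 were. From -1 to 0 kb the number was 0 at 5 h and 10 at 8 h. After scaling to the own sum, 8 of the 20 bins from 0 to 1 kb were at or above untreated at 5 h and 17 at 8 h. From -1 to 0 kb the scaled number was 1 at 5 h and 13 at 8 h. At 8 h fewer bins of the start region thus lay below untreated after scaling than as deposited. In the body the number of bins at or above untreated was the same at both times, 23 of 116 in deposited signal and 28 after scaling.

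The position of the 8 h library among all 7 was taken from the ratio of mean start signal to mean body signal, which no library scale affects. Untreated cells gave 2.29. The irradiated libraries, in order of time from 2 to 24 h, gave 2.58, 2.19, 2.47, 2.16, 1.803 and 2.47, with 2.47 standing for both the 8 h and the 24 h library. The 8 h value lay above both of its neighbours in time. It also lay above the untreated value, with deposited start means of 7.47 and 7.46 but body means of 3.03 and 3.26. This order turned with the background subtracted, where 8 h gave 4.80, untreated cells 5.02 and 24 h 6.16. The levels subtracted were not alike. They were 2.22 from -2 to -1 kb in untreated cells, 1.86 from 118 to 119 kb at 8 h and 2.36 from 119 to 120 kb at 24 h. Without that subtraction the 8 h value overlapped that of the 24 h library within counting intervals (2.456 to 2.475 at 8 h and 2.462 to 2.476 at 24 h). The other neighbours in this order did not overlap. On the log2 scale the start moved against the body by -0.24 from 2 to 5 h, by 0.17 from 5 to 8 h and by -0.19 from 8 to 10 h. These steps share libraries and are not independent of each other, and a single library at 8 h carries both the rise and the fall that follows it.

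The near upstream signal relative to the start signal changed differently over time. Untreated cells gave 0.618. The irradiated libraries gave 0.394, 0.535, 0.606, 0.603, 0.589 and 0.612 in order of time, the 8 h value being 0.606. The 8 h and 10 h values overlapped within counting intervals (0.603 to 0.610 and 0.6001 to 0.606), as did those at 8 h and 24 h (0.610 to 0.615). The 5 h value lay below all later ones. The upstream maximum relative to the downstream maximum was 0.537 (0.530 to 0.544) at 5 h and 0.616 (0.609 to 0.622) at 8 h, with 0.642 in untreated cells and 0.657 at 10 h. The upstream to downstream balance of the 8 h library was thus kept at 10 h within counting error in the 1-kb windows, while its start to body ratio was not.

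**Figure D4:**
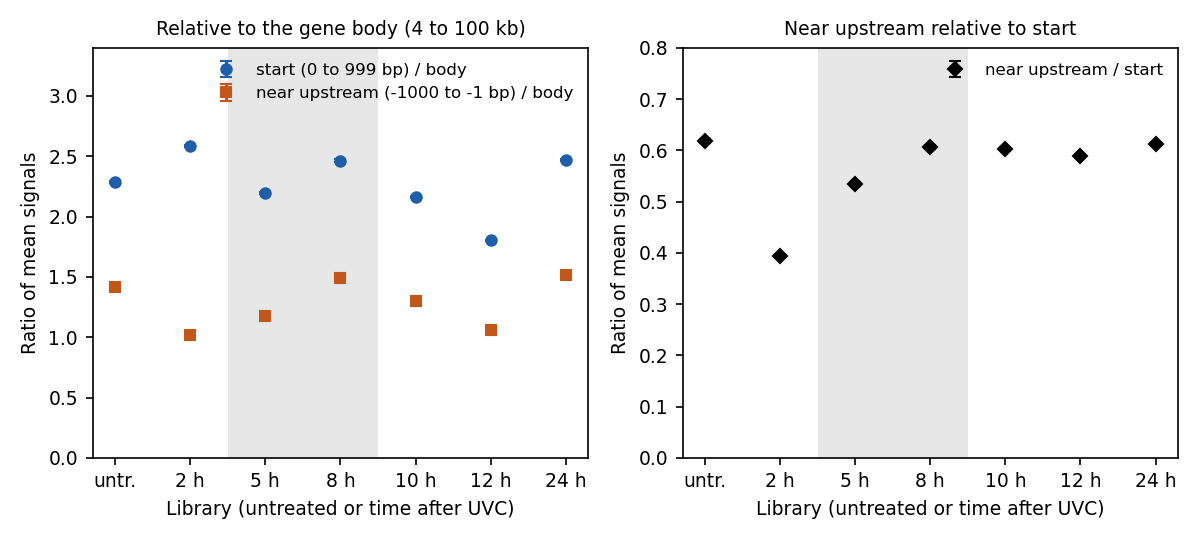
Ratio of mean signals in each of the 7 libraries (horizontal axis: untreated, then time after UVC), for start and near upstream windows over the gene body (left) and for near upstream over start (right), with 95% counting intervals that are mostly smaller than the symbols. Shading marks the 5 h and 8 h libraries, where start over body was 2.19 and 2.47 and near upstream over start was 0.535 and 0.606.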

How the data were processed

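GRO-seq libraries of 7 conditions, 1 each, were read as single-end 51-base reads, per the labels' protocols. The submitters' processing notes name BWA 0.5.9 and the builds hg19 and GRCh37. The gene list averaged, strand handling and scaling are not given in the sources used here. The authors deposited, per the file headers, a signal (average coverage) for each of 122001 positions. All values were whole multiples of 1 step per library (within 0.01 of a step), and successive differences were most negatively autocorrelated 250 bases apart, taken as the extended read length. Reads and counting variances of window means were computed from both, treating reads as independent. A read counts again in each gene it falls in, and PCR duplicates were not recognisable. Bins were 50 bp from -2 to 4 kb and 1 kb from 4 to 120 kb. A bin counted as higher or lower at a fold of 1.1. The bins named are the 3 highest and lowest by ratio, the maxima, the bin at position 0 and the ends of runs. The trough, hump and 23 kb bounds were chosen after their values were seen. The windows, bins and lists were chosen with earlier results of these data known. In 60 simulated pairs the step and read length were recovered in 60, and the 95% interval held the true log2 ratio in 56 for the start, 56 for the body and 58 for their contrast. These pairs drew independent reads, as the intervals assume. They therefore do not test the intervals against duplicates, reads shared between genes or the wider scatter of neighbouring body bins. Alternatives were scaling, background subtraction, medians, window bounds, bin size and fold. Python 3.11.15, NumPy 2.4.6 and SciPy 1.17.1 were used. Single genes and the reference genome were not analysed here.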

Additional observations from a re-analysis of the deposited data

How the results depend on the processing

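The gain around the start kept its sign under every alternative applied to it. The gene-body gain lost its sign only under scaling to the own sum. The body makes up most of that sum, so its scaled ratio was bound to lie near 1. The gene-body log2 ratio turned to -0.0027 after scaling to the own sum, which subtracts 0.041 from every ratio, and was 0.058 after background subtraction, 0.097 with medians and 0.048 for a body from 10 to 120 kb. The start-window log2 ratio became 0.16 (own sum), 0.27 (background subtracted), 0.18 (medians) and 0.32 (a window from -500 to 500 bp). The near upstream ratio became 0.35, 0.71 and 0.41 under the first 3 of these, and the far upstream ratio 0.16 and 0.67 under the first 2. The start minus body contrast was 0.21 after background subtraction, 0.086 with medians, 0.28 for the start window from -500 to 500 bp and 0.16 for the other body bounds. The near upstream minus start contrast was 0.44 after background subtraction and 0.23 with medians, both chosen after seeing the data. The number of 1-kb bins at least 1.1-fold higher was 0 as reported, 80 after background subtraction and 52 at a fold of 1.05, which was chosen after seeing the data. The background (the lowest 1-kb mean) lay from 118 to 119 kb at 5 h and 8 h, and subtracting it leaves that bin without a ratio. Untreated cells had 2.46 in that bin, so the signal subtracted at 5 h and 8 h itself differed from untreated. In untreated cells the background lay from -2 to -1 kb (2.22) and at 24 h from 119 to 120 kb (2.36), so the levels subtracted were not alike. The number of 50-bp bins stayed between 44 and 66 under the 4 alternatives. The start to body ratio in untreated cells and at 2, 5, 8, 10, 12 and 24 h was 5.02, 5.29, 4.14, 4.80, 3.98, 3.05 and 6.16 after background subtraction, and 2.41, 2.94, 2.44, 2.72, 2.38, 1.98 and 2.62 with the body from 10 to 120 kb. In these lists the 8 h value stayed above those at 5 h and 10 h. After background subtraction it lay below the untreated and 24 h values. No paired analysis was possible because no condition was sampled more than once. Counting standard errors were at most 0.014 for log2 ratios of 50-bp bins and 0.0078 for those of 1-kb bins, and the spread between cultures was not measured. The scaled sums by region and the body bins against the start after background subtraction were added after seeing the data.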

Other observations

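The hump behind the downstream maximum was present in some libraries and absent in others, in no order of time. The signal of the 50-bp bin beginning at 700 bp relative to that beginning at 400 bp was 1.098, 1.044, 1.064 and 1.12 in the 2, 5, 10 and 12 h libraries, so the farther bin was the higher one in these 4 libraries. It was 0.965 in untreated cells, 0.977 at 8 h and 0.964 at 24 h, where the signal declined between the bins. The libraries in which it declined were also the 3 with the highest downstream maximum, at 9.35 in untreated cells, 8.82 at 8 h and 9.78 at 24 h, against 6.07 to 7.65 in the others. These bins were chosen after the 5 h and 8 h profiles were seen.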
